A study of Mus musculus with 6 samples.

Results

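The transcripts of the glutathione system, its transferases, peroxidases and enzymes of synthesis, were followed in primary mouse renal fibroblasts cultured with or without Th17 cells. The gene set was defined by a rule on gene symbols, but it was chosen with earlier results of these data known. It took in the transferases of the alpha, mu, omega, pi, theta and zeta classes, the kappa transferase of mitochondria and peroxisomes, the microsomal transferases, the glutathione peroxidases, the gamma-glutamyltransferases, the ligase subunits Gclc and Gclm, glutathione synthetase (Gss), glutathione reductase (Gsr), glutaredoxin (Glrx) and the glutathione-degrading enzyme Chac2. The rule found 42 of the 34745 genes in the table of fragment counts. Of these, 30 had enough counts to be tested and 12 had not.

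The tripeptide glutathione is the most abundant small thiol of animal cells. It is made in the cytosol from glutamate, cysteine and glycine, it serves as the electron donor with which glutathione peroxidases reduce hydrogen peroxide and lipid hydroperoxides, and glutathione transferases join it to reactive compounds so that they can be exported. The oxidised form is returned to the thiol by glutathione reductase, and in the kidney extracellular glutathione is taken apart by gamma-glutamyltransferases on the cell surface. Many genes of this system carry antioxidant response elements, the DNA element bound by NRF2.

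RNA was sequenced from fibroblasts grown out of digested kidneys of mice of WT genotype. All 6 cultures were of the same cell type, and none carried a genetic change. For coculture, the fibroblasts were left to attach for 6 h, an insert with 0.4 µm pores holding Th17 cells was set above them, and the fibroblasts below were collected after 24 h. The Th17 cells had been induced from CD4+ T cells with antibodies to CD3 and CD28 together with IL-1β, IL-6, IL-23 and an antibody to IFN-γ, so the insert held stimulated T cells. It was not stated if the fibroblasts alone had an empty insert, the same 24 h or the same medium. Any such difference cannot be told apart from the presence of Th17 cells. The fibroblasts alone and the cocultured fibroblasts each gave 3 libraries. It was not stated if these stand for separate cultures or animals, and SD, SE and p therefore measure the spread between these libraries, which may be technical.

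The total count per library was 12050529 to 13209581 fragments. Levels are given as CPM, that is, fragments of a gene relative to the TMM-scaled size of its library. At this depth 3 counts, taken here as the floor of detection, corresponded to 0.223 to 0.254 CPM. Differences are log2 fold changes of cocultured over alone from the quasi-likelihood test of edgeR, with the Benjamini-Hochberg adjusted p over all 13088 genes tested. A gene was called higher or lower at an adjusted p below 0.05, and the study's further limit was a fold change above 2. The first principal component of the 6 libraries held 76.8% of the variance.

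The identity of the cells was checked with marker lists. The 12 fibroblast markers summed to 52304 to 54464 CPM alone and to 25141 to 28999 CPM in coculture. Of these markers 10 were lower in coculture, beside 20.0% of all genes tested. Dcn went the other way, at 502 to 508 CPM alone and 1371 to 1462 CPM in coculture, and S100a4 was not called. The 14 macrophage markers summed to 59.4 to 63.2 CPM alone and to 20.0 to 21.2 CPM in coculture. Ptprc, the leukocyte phosphatase CD45, was at 1.09, 0.949 and 0.931 CPM alone and at 0 in every cocultured library. The 16 T cell markers summed to 7.53 to 9.33 CPM alone and to 5.03 to 6.03 CPM in coculture, with 5 of them at 0 in all libraries. Most of this sum was Lck and Trac. Lck was lower, at 3.81 to 5.38 CPM alone and 1.75 to 2.67 CPM in coculture, and Trac was not called. Cd3e, a chain of the T cell receptor complex, was at 0.0777, 0.0791 and 0 CPM alone. In coculture Cd3e was at 0 in replicates 1 and 2 and at 0.457 CPM in replicate 3. The 14 kidney epithelial markers summed to 11.4 to 13.8 CPM alone and to 8.33 to 9.12 CPM in coculture. This list was mixed. Of its 5 tested genes, Lrp2 and Cubn, the endocytic receptors of the proximal tubule, were lower, Lrp2 at 2.28 to 3.81 CPM alone and 0.314 to 0.838 CPM in coculture, and Cubn at 3.40 to 4.35 and 1.93 to 2.12 CPM. The water channel Aqp1 lay the other way without overlap, at 2.71 to 3.18 CPM alone and 3.94 to 4.56 CPM in coculture, and missed the threshold (quasi-likelihood adjusted p = 0.0531). Slc12a1 and Krt18 overlapped between the groups, and Epcam did not exceed 0.338 CPM in any library. The 8 endothelial markers summed to 123 to 131 CPM alone and to 273 to 309 CPM in coculture. Most of this sum was Flt1, at 113 to 121 CPM alone and 267 to 303 CPM in coculture, while Kdr, the other VEGF receptor of the list, was lower in coculture, at 5.05 to 5.85 CPM alone and 0.0786 to 0.152 CPM with Th17 cells. Pecam1 stayed between 0.633 and 1.55 CPM in both groups, and Egfl7 was not called either. The markers named here were chosen after their values were seen. The fibroblast, T cell, macrophage and epithelial marker sums were thus all lower in coculture and the endothelial sum higher. The part of these differences in the results below was not tested. In bulk samples, fewer cells of a type and less RNA per cell cannot be told apart.

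Several transferases descend from recent gene duplications, and how the authors assigned fragments that fit several genes was not stated. The mu class shows how alike such genes are. The mu genes lie side by side on chromosome 3, and Gstm1 and Gstm2 are identical in 86.0% of their coding bases. The same 75 coding bases of 4 of them (coding bases 144 to 218, GENCODE M21, GRCm38, minus strand) are shown because differences of this kind are all that tells their fragments apart. Each stretch crosses an exon junction, and capitals mark the bases that differ from Gstm1.
Gstm1 (chr3:108016560-108016917): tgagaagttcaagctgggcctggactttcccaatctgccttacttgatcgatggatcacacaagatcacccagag
Gstm2 (chr3:107985288-107985651): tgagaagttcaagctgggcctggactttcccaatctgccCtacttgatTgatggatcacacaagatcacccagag
Gstm3 (chr3:107967807-107968169): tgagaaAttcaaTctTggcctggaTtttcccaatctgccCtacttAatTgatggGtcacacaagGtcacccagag
Gstm4 (chr3:108043561-108043928): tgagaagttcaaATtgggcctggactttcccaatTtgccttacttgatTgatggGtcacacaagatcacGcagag
In this stretch Gstm2 differs from Gstm1 at 2 bases, Gstm3 at 9 and Gstm4 at 6. The stretch was picked as the 75 coding bases in which Gstm1 and Gstm2 are most alike. Over all 657 coding bases the order is another, with Gstm3 closest to Gstm1 at 69 differences, then Gstm2 at 92 and Gstm4 at 130. The pi class is harder to resolve, since Gstp1 and Gstp2 on chromosome 19 are identical in 98.1% of coding bases. The stretch below (coding bases 58 to 132, minus strand) is the same in both genes, so a fragment from it cannot be given to either.
Gstp1 (chr19:4037302-4037376) and Gstp2 (chr19:4041596-4041670): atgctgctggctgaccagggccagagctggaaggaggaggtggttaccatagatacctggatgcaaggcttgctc

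The share of a gene's transcript sequence that also occurs in another gene was counted in stretches of 75 bases. Of the 42 genes, 26 shared no such stretch. The share exceeded 20% in 6 genes, namely Gsta1 with 84.7%, Gstp2 with 50.1%, Gsta2 with 36.6%, Gpx4 with 29.8%, Gstp1 with 29.2% and Gstm3 with 21.6%. Among the genes called below, Gstm1 shared 11.7%, with Gstm3 and pseudogenes such as Gstm2-ps1, Gstt3 11.5%, Gss 7.76%, Gclm 3.5% and Gstm2 1.85%. Values of all these genes, and of Gstp1 and Gpx4 most, are uncertain in the shared part. Gsta3, Gsta4, Gsto1, Gsto2, Gstt2, Glrx, Gclc, Gpx1, Gpx3, Gpx7 and Gpx8 shared no stretch of 75 bases with any gene.

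The upstream sequences of the genes were searched for the core of the antioxidant response element, TGACNNNGC on either strand, within the 250 bases before the start site (RefSeq, GRCm38.p6). Of the 42 genes, 37 had at least one such sequence, 53 in all since some genes have several start sites. Gclc, Gsr, Gsta4, Gstt2 and Ggt5 had none available and were not searched, so nothing is known here of a match in them. A match was held by 7 of the 53 (13.2%), against 10.2% of all 32851 upstream sequences. It lay before the start site nearest to the gene's listed start in Gclm, Gsta3, Gstm5 and Mgst1, and before another start site of Ggt1 and Gstm7. The sequences of Gclm and Gsta3 are shown because these genes hold a match and moved in opposite directions, with the match in capitals.
Gclm (chr3:122245307-122245556, plus strand): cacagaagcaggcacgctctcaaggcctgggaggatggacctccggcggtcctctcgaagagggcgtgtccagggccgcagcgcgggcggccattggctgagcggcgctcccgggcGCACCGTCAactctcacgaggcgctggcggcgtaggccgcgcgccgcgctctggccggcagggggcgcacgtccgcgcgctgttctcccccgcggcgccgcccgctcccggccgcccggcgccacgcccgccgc
Gsta3 (chr1:21240335-21240584, plus strand): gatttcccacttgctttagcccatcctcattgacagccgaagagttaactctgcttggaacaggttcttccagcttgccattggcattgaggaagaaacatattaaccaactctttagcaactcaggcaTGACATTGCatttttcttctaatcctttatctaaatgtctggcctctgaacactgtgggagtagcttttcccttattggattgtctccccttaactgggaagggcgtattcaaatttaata
In Gclm the match was on the minus strand 134 bases before the start, and in Gsta3 on the plus strand 121 bases before it. A match describes these letters only and marks neither a bound site nor a cause of a change.

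With Th17 cells, 13 of the 30 tested glutathione genes were higher and 3 were lower, and 14 were not called. All 3 synthesis genes, both omega transferases and Glrx were among those higher, and Gsta3, Gpx3 and Gpx7 were the genes that were lower. The 43.3% of the tested genes called higher stood beside 17.1% of all genes tested, and the 3 of 30 called lower beside 20.0%. The set was chosen with earlier results of these data known, so these shares describe it only. The fold limit was passed upward by 7 genes, against 3.87% of all genes tested, and downward by 2, against 7.78%. The median log2 fold change of the 30 genes was 0.37, and that of all genes tested was 0.00. The groups did not overlap for any of the 16 genes called, nor for 4 of the 14 not called, and they did not overlap for 50.4% of all genes tested. Of the 30 genes, 4 (Gsta3, Ggt1, Mgst2 and Gstt2) met the count minimum in all libraries of their higher group only, so that a difference was built into their selection, and all 4 are among the 9 past the fold limit. Among the other 26 genes, 10 were higher, 4 of them past the fold limit, and 2 lower, 1 of them past it, with a median log2 fold change of 0.29.

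**Figure D1:**
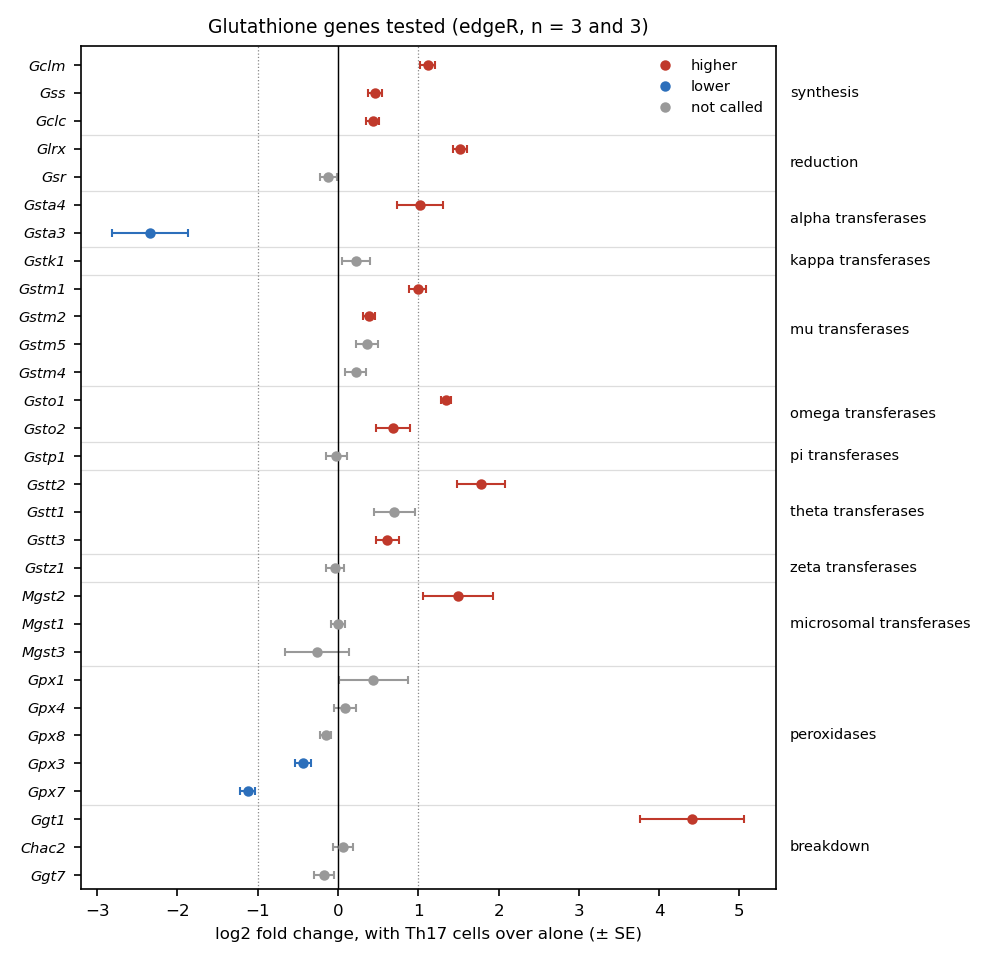
Log2 fold change (x axis, cocultured over alone, error bars SE) of the 30 tested glutathione genes, grouped by role, with n = 3 libraries in each group. Red points were higher (13 genes), blue points lower (3) and grey points not called (14) at an adjusted p below 0.05 in edgeR, and dotted lines mark a fold change of 2. All synthesis genes lie right of 0, and no tested peroxidase was called higher. The position of Ggt1 depends on the prior count, since its counts alone were 3 or fewer.

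Glutathione synthesis starts with glutamate-cysteine ligase, which joins glutamate to cysteine and limits the rate of the pathway. Gclc (chr9:77754535-77794485, plus strand), its catalytic subunit, was at 37.1, 40.3 and 42.5 CPM alone and at 52.2, 57.6 and 51.9 CPM in coculture. The cocultured libraries all lay above the libraries alone, by a log2 fold change of 0.43 ± 0.08 (SE, n = 3 and 3, quasi-likelihood adjusted p = 0.00345). Gclm (chr3:122245557-122270732, plus strand) encodes the modifier subunit, which raises the activity of the catalytic subunit. Its levels were 20.8, 22.3 and 20.4 CPM alone and 42.3, 45.7 and 49.6 CPM in coculture. The lowest cocultured library lay well above the highest library alone, and Gclm passed the fold limit at a log2 fold change of 1.12 ± 0.09 (SE, quasi-likelihood adjusted p = 1.7e-05). Gclm overlaps the exons of Gm6061 on the same strand, whose counts were 4, 8 and 2 alone and 14, 15 and 13 in coculture, against 241 to 652 for Gclm itself. Gss (chr2:155563181-155592810, minus strand), the synthetase that adds glycine in the second step, was at 34.3, 33.9 and 29.6 CPM alone and at 44.2, 46.1 and 44.8 CPM in coculture. It was higher by a log2 fold change of 0.46 ± 0.08 (SE, quasi-likelihood adjusted p = 0.00233). Its exons overlap in part those of Acss2 on the other strand, which had 52 to 70 counts alone and 52 to 83 in coculture against 350 to 594 for Gss.

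The balance of the ligase subunits was described by their ratio. The ratio of Gclm to Gclc counts within a library, which does not depend on how libraries are scaled, was 0.561, 0.553 and 0.48 alone and 0.812, 0.793 and 0.957 in coculture. The mean ratio was 0.531 ± 0.045 alone and 0.854 ± 0.090 in coculture (SD, n = 3). The libraries did not overlap, and the two-sided exact permutation test gave p = 0.1, the smallest p that 3 against 3 libraries allow. The same holds for the other 3 ratios below, 4 in all, and the adjusted p was 0.1 for each. The test could thus not reach the threshold of 0.05. The pairs were not among the planned comparisons, and overlap was not counted for ratios of other genes, so the ratios are description only.

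Glutathione that has been oxidised is reduced again by Gsr, and thiols of proteins that carry glutathione are freed by Glrx. Glrx (chr13:75839868-75850151, plus strand) had the largest log2 fold change of the tested genes whose mean alone was above 20 CPM. Its levels were 62.0, 65.5 and 69.1 CPM alone and 169, 187 and 207 CPM in coculture. The groups were far apart, with a log2 fold change of 1.52 ± 0.09 (SE, quasi-likelihood adjusted p = 1.47e-06), a 2.87-fold difference. Gsr (chr8:33652523-33698163, plus strand), which uses NADPH, was at 28.5, 26.9 and 33.0 CPM alone and at 25.8, 29.7 and 25.7 CPM in coculture. The groups overlapped, and the log2 fold change was -0.12 ± 0.11 (SE, quasi-likelihood adjusted p = 0.423).

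**Figure D2:**
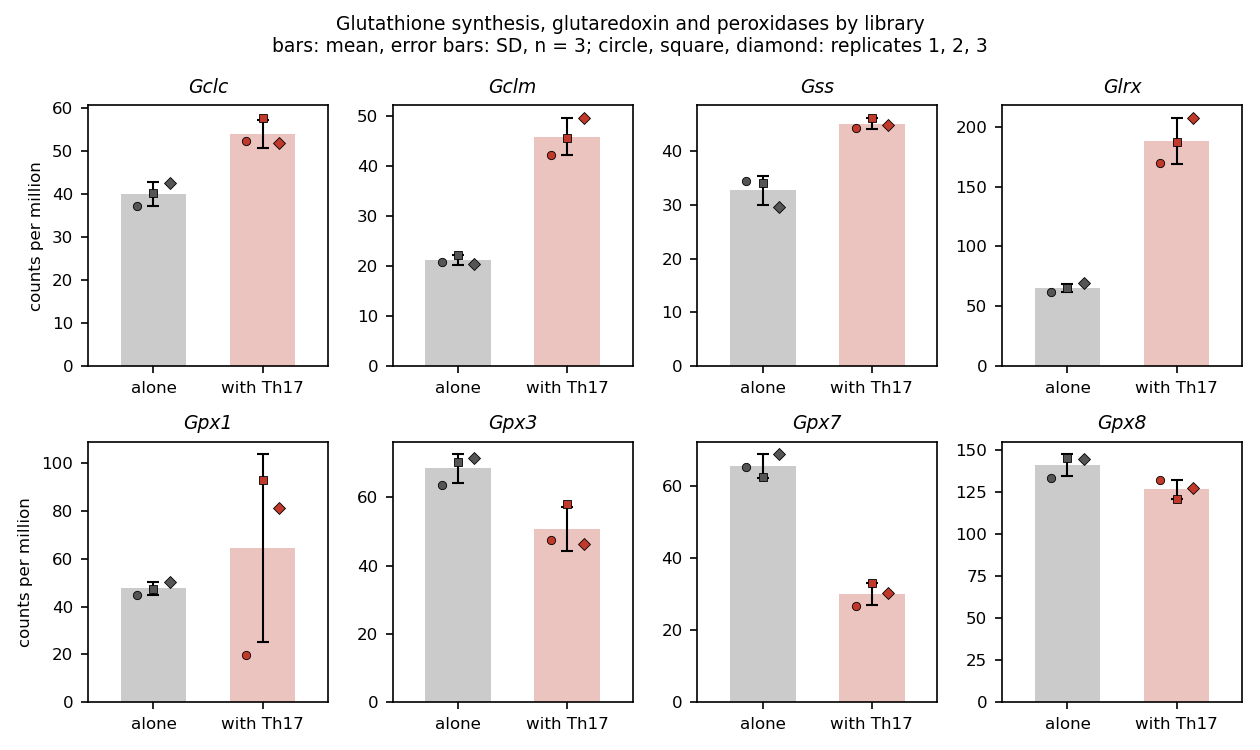
CPM in each library (points, with circle, square and diamond for replicates 1, 2 and 3) of the synthesis genes, Glrx and 4 peroxidases, in fibroblasts alone (grey) and with Th17 cells (red). Bars are means and error bars SD (n = 3), and each y axis starts at 0 with its own range. Glrx went from 65.6 to 188 CPM and Gpx7 from 65.4 to 30.0 CPM, while cocultured replicate 1 of Gpx1, at 19.8 CPM, lies far below the other cocultured libraries.

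The omega class differs from the other transferases in having a cysteine in place of a tyrosine or serine at its active site, and reduces dehydroascorbate and mixed disulfides. Gsto1 (chr19:47854970-47864790, plus strand) was at 218, 231 and 226 CPM alone and at 539, 581 and 601 CPM in coculture. The counts behind these values, 2671 to 2926 alone and 7240 to 7898 in coculture, were the highest of the set, and the log2 fold change of 1.35 ± 0.06 (SE, quasi-likelihood adjusted p = 3.9e-07) had the smallest adjusted p. Gsto2 (chr19:47865545-47886324, plus strand), its neighbour, was scarce, at 2.80, 2.06 and 2.45 CPM alone and 4.39, 3.70 and 3.66 CPM in coculture. Its log2 fold change was 0.68 ± 0.21 (SE, quasi-likelihood adjusted p = 0.0304). This call was lost without alone replicate 2 or 3 or without cocultured replicate 1 or 2, at adjusted p of 0.0542 to 0.11, and also under DESeq2 at 0.0983. The ratio of Gsto1 to Gsto2 counts was 77.9, 113 and 92.1 alone and 123, 157 and 165 in coculture, again without overlap. Cfap43 lies across both genes on the other strand without sharing an exon with them, and had 2005 to 2122 counts alone and 2140 to 2192 in coculture.

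In the mu class, which conjugates glutathione to a broad range of electrophiles, 4 of 7 genes were tested and 2 of these were higher. Gstm1 (chr3:108012255-108017973, minus strand) was at 28.6, 28.2 and 22.6 CPM alone and at 53.6, 51.6 and 52.6 CPM in coculture. It lay just inside the fold limit, with a log2 fold change of 0.99 ± 0.10 (SE, quasi-likelihood adjusted p = 6.73e-05). The pseudogene Gstm2-ps1, with which Gstm1 shares sequence, had 29, 38 and 25 counts alone and 81, 78 and 67 in coculture, against 267 to 368 and 657 to 720 counts of Gstm1. Gstm2 (chr3:107981702-107986453, minus strand), the more abundant gene, was at 92.7, 96.1 and 89.3 CPM alone and at 112, 130 and 120 CPM in coculture. Its groups were also apart, by a log2 fold change of 0.38 ± 0.07 (SE, quasi-likelihood adjusted p = 0.00314). The ratio of Gstm1 to Gstm2 counts was 0.308, 0.294 and 0.253 alone and 0.478, 0.396 and 0.439 in coculture. The ratios of the groups did not overlap, which describes these libraries only.

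The other mu genes were not called. Gstm4 was at 7.87 to 8.62 CPM alone and at 8.91 to 10.1 CPM in coculture, and its log2 fold change was 0.22 ± 0.13 (SE, quasi-likelihood adjusted p = 0.216). Gstm5 was at 12.97 to 16.3 CPM alone and at 17.7 to 22.3 CPM in coculture, without overlap, and its log2 fold change was 0.36 ± 0.14 (SE, quasi-likelihood adjusted p = 0.0715). Exons of Gstm5 overlap those of the antisense gene 4933431E20Rik, which had 25 to 30 counts alone and 48 to 85 in coculture against 167 to 293 for Gstm5. Gstm3 had 4, 3 and 2 counts alone and 7, 9 and 6 in coculture, Gstm6 had at most 6 counts in a library, and Gstm7 had 1, 3 and 2 counts alone and 13, 1 and 16 in coculture. These 3 genes were below the count minimum. In the fit without it none was called, and Gstm3, whose groups did not overlap, had a quasi-likelihood adjusted p of 0.213, Gstm6 of 0.601 and Gstm7 of 0.0845.

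**Figure D3:**
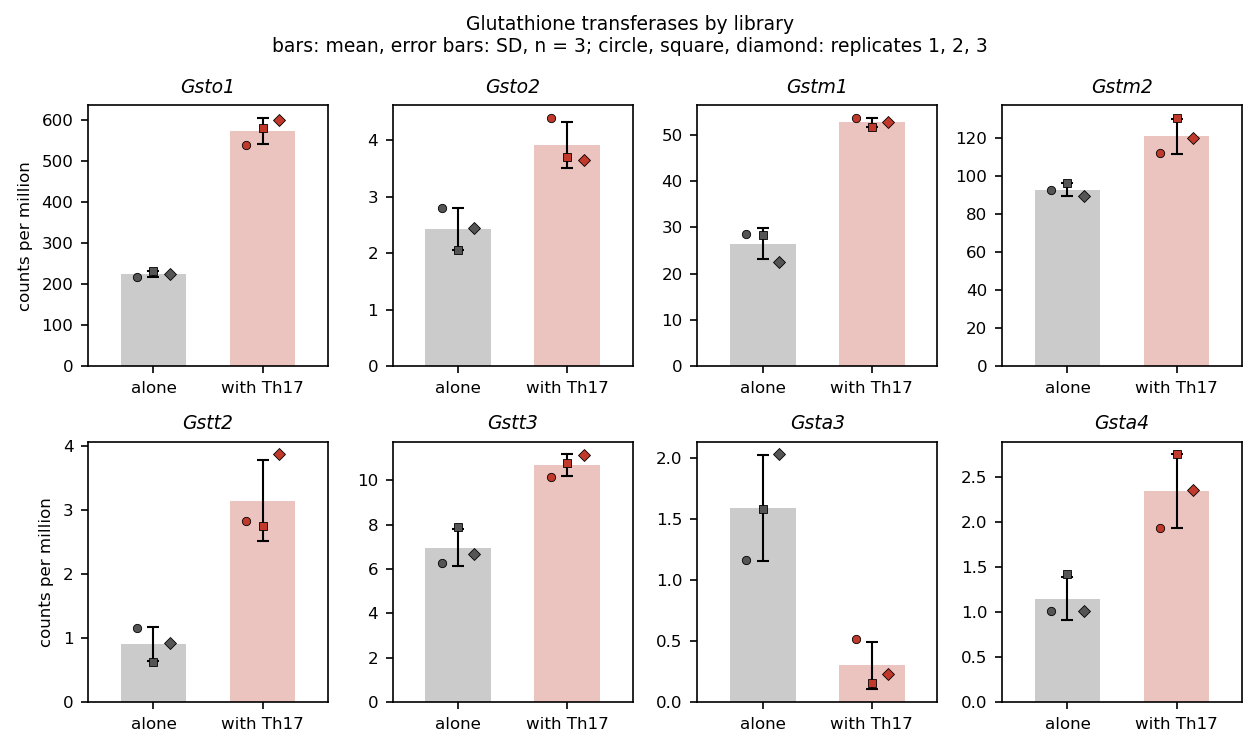
CPM in each library (points, with circle, square and diamond for replicates 1, 2 and 3) of 8 glutathione transferases in fibroblasts alone (grey) and with Th17 cells (red), with means as bars and SD as error bars (n = 3). Each y axis starts at 0 with its own range. Only genes that were called are drawn, and their groups do not overlap, beside no overlap in 50.4% of all genes tested. Gstp1, Gstk1, Gstz1, Mgst1 and Mgst3, whose groups overlapped, are not drawn. Also not drawn are Mgst2, which was called higher, and Gstm4, Gstm5 and Gstt1, which were not called though their groups do not overlap. Gsta3 is the panel in which the cocultured libraries are lower, at 0.157 to 0.521 CPM.

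The theta class, whose members act on halogenated compounds and organic hydroperoxides, lies in a cluster on chromosome 10. Gstt2 (chr10:75831845-75834881, minus strand) was at 1.17, 0.632 and 0.931 CPM alone and at 2.83, 2.75 and 3.88 CPM in coculture. Every cocultured library lay above the libraries alone, with a log2 fold change of 1.78 ± 0.30 (SE, quasi-likelihood adjusted p = 0.00161), on 8 to 51 counts. Gstt2 met the count minimum in all libraries of the cocultured group only, so a difference was built into its selection. Gstt3 (chr10:75774115-75781414, minus strand) was at 6.29, 7.91 and 6.69 CPM alone and at 10.1, 10.8 and 11.1 CPM in coculture. It was higher by a log2 fold change of 0.62 ± 0.14 (SE, quasi-likelihood adjusted p = 0.00756), and Gm20441, whose exons overlap its own on the same strand, had at most 13 counts in a library. Gstt1 was at 2.80, 2.77 and 1.52 CPM alone and at 3.65, 3.54 and 4.42 CPM in coculture. Its groups did not overlap, but its log2 fold change of 0.70 ± 0.26 missed the threshold (SE, quasi-likelihood adjusted p = 0.0622). Gstt4 had 2 counts in alone replicate 1 and 0 in the other libraries.

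The alpha class was near the limit of detection. Gsta4 (chr9:78191966-78209348, plus strand), which conjugates the aldehydes formed from oxidised lipids, was at 1.01, 1.42 and 1.02 CPM alone and at 1.94, 2.75 and 2.36 CPM in coculture. Its log2 fold change was 1.02 ± 0.28 (SE, quasi-likelihood adjusted p = 0.0193). Its call was lost without alone replicate 1 or 3 or cocultured replicate 2, at adjusted p of 0.0686 to 0.0725, and under DESeq2 at 0.0624. Gsta3 (chr1:21240589-21265661, plus strand) was at 1.17, 1.58 and 2.03 CPM alone and at 0.521, 0.157 and 0.228 CPM in coculture. It was the only transferase called lower, and its log2 fold change was -2.34 ± 0.47 (SE, quasi-likelihood adjusted p = 0.00393), on 15, 20 and 24 counts alone and 7, 2 and 3 in coculture. Gsta3 met the count minimum in the libraries alone only, so a difference was built into its selection. The macrophage marker sum and the mixed kidney epithelial sum given above were lower in the same libraries, and their part in the fall of Gsta3 was not tested. Gsta1 and Gsta2 had 0 counts in all 6 libraries, which allows a level of up to 0.254 CPM in a library for fragments that could be assigned. Most of Gsta1 and part of Gsta2 is shared with other genes, so the limit would not hold if shared fragments were left out of the counts.

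In the pi, kappa and zeta classes no gene was called. Gstp1 (chr19:4035407-4037921, minus strand), the pi transferase, was at 55.3, 58.0 and 55.9 CPM alone and at 46.6, 52.9 and 67.4 CPM in coculture. The cocultured libraries spread around those alone, with a log2 fold change of -0.02 ± 0.12 (SE, quasi-likelihood adjusted p = 0.921). Its near-copy Gstp2 had 3 counts in alone replicate 1 and 0 elsewhere, although fragments from the stretch shown above could have come from either gene. Gstk1, the mitochondrial and peroxisomal kappa transferase, was at 3.81 to 4.74 CPM alone and at 4.72 to 5.43 CPM in coculture, with a log2 fold change of 0.22 ± 0.17 (SE, quasi-likelihood adjusted p = 0.352). Gstz1, which takes part in the breakdown of tyrosine, was at 13.9 to 15.5 CPM alone and at 13.2 to 15.1 CPM in coculture, with a log2 fold change of -0.04 ± 0.11 (SE, quasi-likelihood adjusted p = 0.829).

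The microsomal transferases are membrane proteins unrelated in sequence to the cytosolic ones. Mgst1 (chr6:138140316-138156755, plus strand), a detoxifying enzyme of the endoplasmic reticulum and outer mitochondrial membrane, was at 48.4, 43.8 and 45.3 CPM alone and at 46.5, 41.6 and 49.7 CPM in coculture. The groups overlapped in full, and the log2 fold change was 0.00 ± 0.09 (SE, quasi-likelihood adjusted p = 0.979). Mgst2 (chr3:51660360-51682677, plus strand), which can make leukotrienes, was at 0.233, 0.632 and 0.846 CPM alone and at 1.19, 1.89 and 1.75 CPM in coculture, on 3 to 24 counts. It was higher by a log2 fold change of 1.49 ± 0.43 (SE, quasi-likelihood adjusted p = 0.0244), and the call was lost without alone replicate 1 or 2 or cocultured replicate 2 or 3, at adjusted p of 0.0584 to 0.0782. Mgst2 met the count minimum in all libraries of the cocultured group only, so a difference was built into its selection. Mgst3 was at 1.52 to 2.33 CPM alone and at 0.786 to 2.51 CPM in coculture, with a log2 fold change of -0.26 ± 0.40 (SE, quasi-likelihood adjusted p = 0.641).

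Of the 8 peroxidases 5 were tested, none was called higher and 2 were lower, beside 17.1% and 20.0% of all genes tested. Gpx7 (chr4:108400390-108406961, minus strand), an enzyme of the endoplasmic reticulum that has cysteine where Gpx1 and Gpx4 have selenocysteine, was at 65.2, 62.3 and 68.8 CPM alone and at 26.8, 33.0 and 30.3 CPM in coculture. The highest cocultured library was far below the lowest library alone, and the log2 fold change was -1.12 ± 0.09 (SE, quasi-likelihood adjusted p = 1.8e-05), a 2.18-fold lower level. Gpx8 (chr13:113042763-113046388, minus strand), its relative in the same compartment, was at 134, 145 and 145 CPM alone and at 132, 121 and 128 CPM in coculture. Its groups were apart by little, and the log2 fold change was -0.15 ± 0.07 (SE, quasi-likelihood adjusted p = 0.0971). The ratio of Gpx7 to Gpx8 counts was 0.488, 0.429 and 0.474 alone and 0.203, 0.273 and 0.237 in coculture. This ratio of the reticulum enzymes had the largest log2 change of the 4 ratios, -0.97. Gpx3 (chr11:54902453-54910377, plus strand), the secreted peroxidase of plasma for which the kidney is a main source, was at 63.6, 70.1 and 71.5 CPM alone and at 47.4, 58.0 and 46.4 CPM in coculture. It was lower by a log2 fold change of -0.44 ± 0.10 (SE, quasi-likelihood adjusted p = 0.0083). The mixed epithelial marker sum was lower in the same libraries, and its part in this difference was not tested.

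Gpx1 (chr9:108338903-108340343, plus strand), the cytosolic selenoprotein that reduces hydrogen peroxide, was at 44.8, 47.4 and 50.4 CPM alone and at 19.8, 92.8 and 80.9 CPM in coculture. Cocultured replicate 1 lay 2.4-fold below the mean of the libraries alone, and the other cocultured libraries lay 1.83-fold above it. The spread between the cocultured libraries was larger than the difference between the groups, with a log2 fold change of 0.44 ± 0.43 (SE, quasi-likelihood adjusted p = 0.464). Without cocultured replicate 1 the log2 fold change was 0.87, at an adjusted p of 0.000259. The counts were 577, 600 and 596 alone and 266, 1180 and 1063 in coculture, so counting error was small. Of 7212 genes with a mean of at least 20 CPM, 8 were in cocultured replicate 1 more than 3-fold below both other cocultured libraries, and Gpx1 was among these. The corresponding numbers in the other 5 libraries were 0 to 8. Gpx4 (chr10:80047166-80056439, plus strand), which reduces phospholipid hydroperoxides in membranes and so holds back ferroptosis, was at 35.5, 40.1 and 40.7 CPM alone and at 32.7, 41.6 and 49.4 CPM in coculture. The groups overlapped, and the log2 fold change was 0.09 ± 0.14 (SE, quasi-likelihood adjusted p = 0.653). Gpx2, the peroxidase of the gut lining, had 1 count in all, and Gpx5 and Gpx6, known from the epididymis and the olfactory lining, had none.

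Gamma-glutamyltransferases remove the glutamate residue of extracellular glutathione, and Ggt1 is abundant on the brush border of the proximal tubule. Ggt1 (chr10:75561604-75586200, plus strand) had 3, 0 and 0 counts alone and 26, 23 and 26 in coculture. All libraries alone were at or below 3 counts and all cocultured libraries well above, at 1.94, 1.81 and 1.98 CPM. Against the floor of 3 counts in a library alone, Ggt1 was at least 7.51-fold higher in coculture. The quasi-likelihood adjusted p of 0.000689 is for any difference and not for this bound. Ggt1 met the count minimum in the cocultured libraries only, so a difference was built into its selection. In the same libraries the kidney epithelial marker Aqp1 was at a higher level and Lrp2 and Cubn were lower, as given above, and the part of other cells in the difference of Ggt1 was not tested. Ggt7, whose enzymatic role is not established, was at 18.0 to 22.4 CPM alone and at 16.1 to 19.1 CPM in coculture, with a log2 fold change of -0.17 ± 0.12 (SE, quasi-likelihood adjusted p = 0.313). Ggt5 had at most 4 counts in a library and Ggt6 had none. Chac2, which degrades glutathione slowly in the cytosol, was at 8.46 to 9.79 CPM alone and at 9.21 to 9.83 CPM in coculture, with a log2 fold change of 0.06 ± 0.13 (SE, quasi-likelihood adjusted p = 0.726).

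Levels of different genes were compared as CPM per kb of merged annotated exons. By this measure Gpx8 was the highest glutathione gene alone, at 135 ± 6 (SD, n = 3) CPM per kb, followed by Gsto1 at 111 ± 3 and Gstm2 at 55.2 ± 2.0. In coculture Gsto1 was the highest, at 284 ± 16 CPM per kb, ahead of Gpx8 at 121 ± 5 and Gstm2 at 71.9 ± 5.5. Gpx7 had rank 4 alone, at 50.8 ± 2.5 CPM per kb, and rank 10 in coculture, at 23.3 ± 2.4. Glrx stood at 11.9 ± 0.7 CPM per kb alone and at 34.2 ± 3.5 in coculture. Its place depends on the length used, because the deposited FPKM values gave Glrx rank 4 alone, at 47.6, and rank 2 in coculture, at 143, against ranks 11 and 7 per kb. The lowest tested genes alone were Ggt1, Mgst2, Gstt2 and Gsta3, at 0.0228 to 0.367 CPM per kb.

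**Figure D4:**
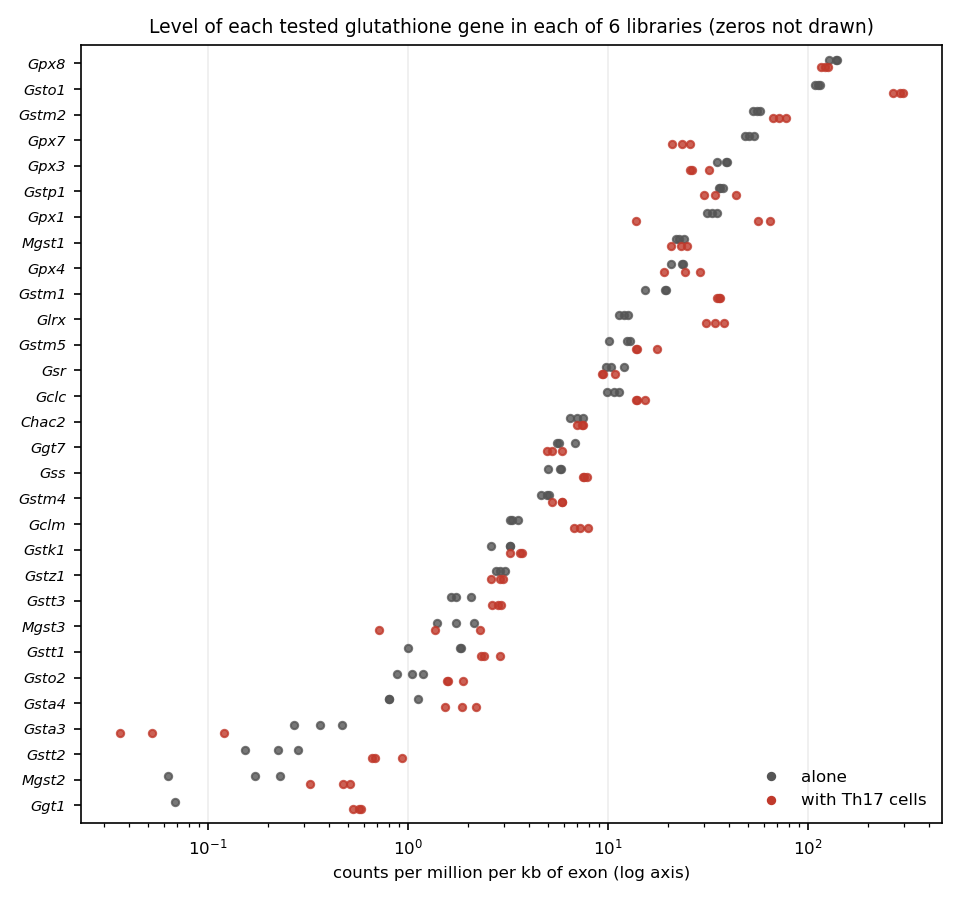
Level of each of the 30 tested glutathione genes in CPM per kb of merged exon (log axis) in the 3 libraries alone (grey) and the 3 cocultured libraries (red), ordered by the mean alone. Gsto1 (111 and 284) and Gpx8 (135 and 121) lie at the top, and genes from Gsta3 downward are below 1 in every library.

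The wider thiol system was described with a list of 78 other genes, also chosen with earlier results of these data known. Of the list, 77 genes were in the table and 70 were tested. In coculture 27 of these (38.6%) were higher and 8 (11.4%) lower, against the 17.1% and 20.0% of all genes tested, and the median log2 fold change was 0.20. The fold limit was passed by 3 genes. Ptges, the inducible prostaglandin E synthase, which belongs to the same membrane family as the microsomal transferases and uses glutathione, was at 96.7, 93.0 and 96.7 CPM alone and at 258, 277 and 314 CPM in coculture. Its log2 fold change was 1.57 ± 0.08 (SE, quasi-likelihood adjusted p = 7.23e-07). Sod3, the extracellular superoxide dismutase, was at 2.37 to 2.95 CPM alone and at 5.66 to 5.88 CPM in coculture, with a log2 fold change of 1.08 ± 0.18 (SE, quasi-likelihood adjusted p = 0.00126). Txnip, which binds thioredoxin and blocks it, was at 301, 345 and 288 CPM alone and at 161, 141 and 123 CPM in coculture. It was the one gene of the list past the limit downward, at a log2 fold change of -1.14 ± 0.11 (SE, quasi-likelihood adjusted p = 3.8e-05).

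Of the 5 further genes of the list named whatever their values, Txnrd1 and Nfe2l2 were called and the other 3 were not. Slc7a11, the cystine carrier that supplies cysteine for glutathione, was at 43.9 to 49.0 CPM alone and at 37.0 to 55.5 CPM in coculture, with a log2 fold change of -0.10 ± 0.15 (SE, quasi-likelihood adjusted p = 0.64). Txnrd1, thioredoxin reductase of the cytosol, was at 243 to 248 CPM alone and at 361 to 438 CPM in coculture, and was higher by 0.66 ± 0.08 on the log2 scale (SE, quasi-likelihood adjusted p = 0.000176). Srxn1, which restores overoxidised peroxiredoxins, was at 70.3 to 77.7 CPM alone and at 77.4 to 95.4 CPM in coculture, with a log2 fold change of 0.17 ± 0.09 (SE, quasi-likelihood adjusted p = 0.177). Nfe2l2, the gene of NRF2 itself, was higher, with 180 to 193 CPM alone, 226 to 252 CPM in coculture and a log2 fold change of 0.36 ± 0.06 (SE, quasi-likelihood adjusted p = 0.00208). Its inhibitor Keap1 was at 43.2 to 52.5 CPM alone and at 43.0 to 47.8 CPM in coculture, with a log2 fold change of -0.06 ± 0.09 (SE, quasi-likelihood adjusted p = 0.657).

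By role, the genes grouped under supply of NADPH, the electron donor of Gsr, were called most often, with 6 of 7 higher. G6pdx, Pgd, Me1 and Idh1 were higher by 0.21 to 0.36 on the log2 scale. Taldo1 and Tkt, which do not form NADPH themselves, were higher by 0.43 and 0.32, and the mitochondrial Idh2 was lower at -0.60. All these counts stand beside the 17.1% higher and 20.0% lower of all genes tested. Of the 9 tested genes for selenoprotein synthesis and selenium supply, which the selenium-containing peroxidases need, 5 were higher and 1 lower. Those higher were Secisbp2l (0.93), Lrp8 (0.82), Sephs2 (0.60), Secisbp2 (0.48) and Scly (0.40), and Sephs1 was lower (-0.22, all log2 fold changes). The exporters Abcc1 and Abcc4, which carry glutathione conjugates out of the cell, were higher by 0.66 and 0.97 on the log2 scale, and the other 3 tested genes of that role were not called. Among the peroxiredoxins, catalase and the superoxide dismutases 5 of 10 genes were higher and 2 lower, the latter the share of all genes tested. The genes of this paragraph were named after their values had been seen.

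**Figure D5:**
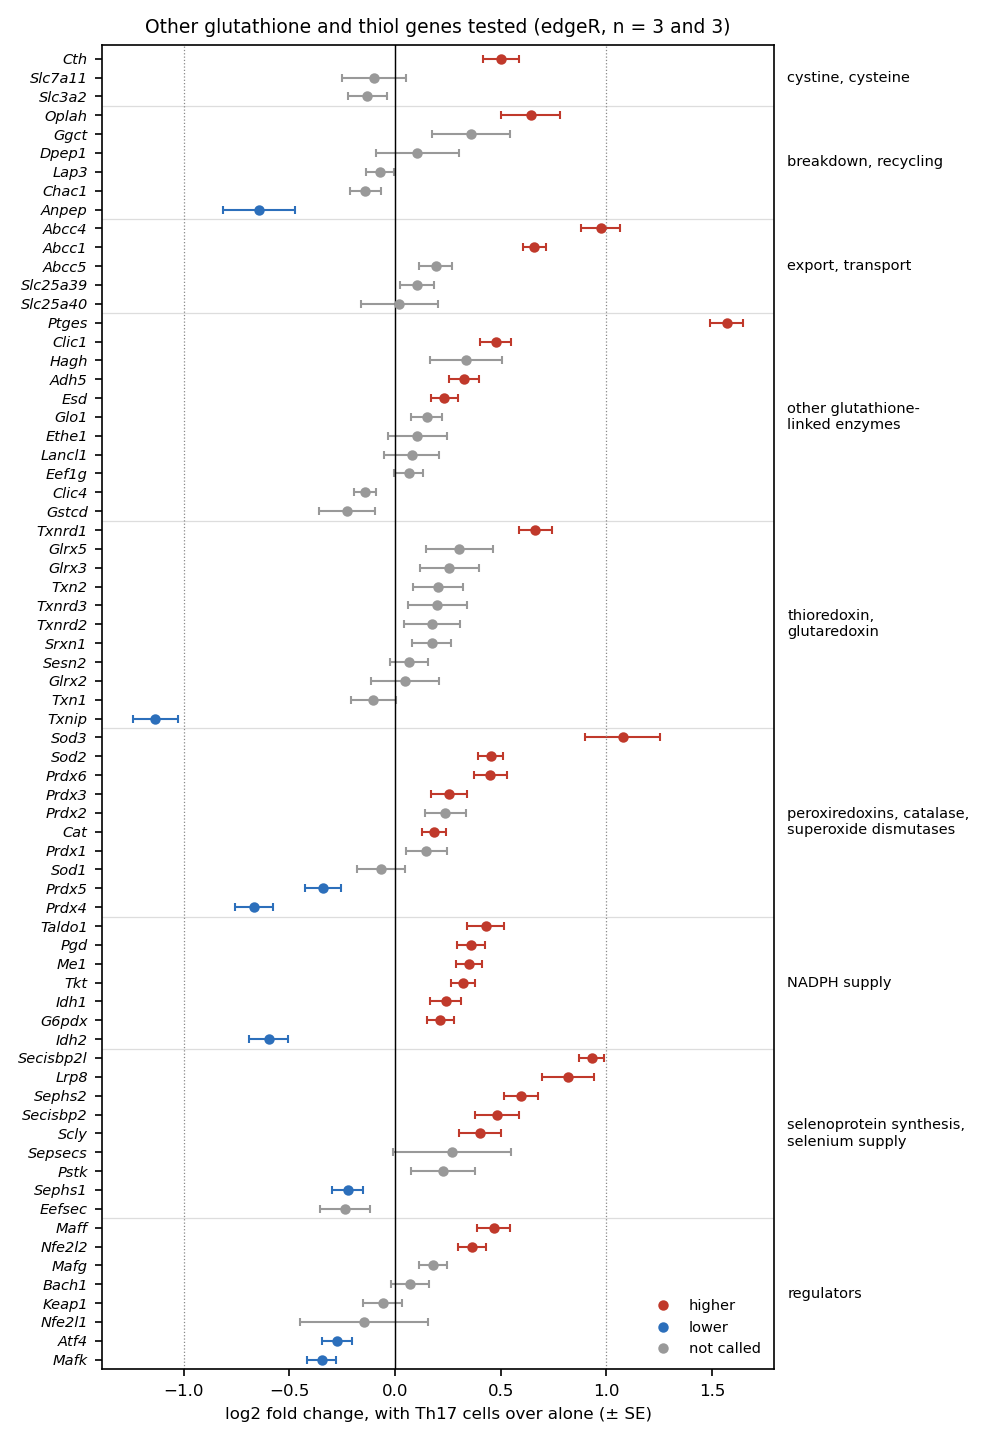
Log2 fold change (x axis, cocultured over alone, error bars SE) of the 70 tested genes of the wider glutathione and thiol list, grouped by role, n = 3 libraries in each group. Red points were higher (27 genes), blue points lower (8) and grey points not called (35) at an adjusted p below 0.05 in edgeR. Dotted lines mark a fold change of 2, which Ptges, Sod3 and Txnip passed.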

How the data were processed

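Fragments were counted in 6 RNA-seq libraries, 3 of renal fibroblasts alone and 3 cocultured with Th17 cells, grouped by their titles. Read filtering by the authors used Seqtk, alignment HISAT2 2.0.4 and fragment counting StringTie 1.3.3b, and the submitters' processing notes name mm10 and edgeR. They deposited raw counts per gene, and beside them FPKM values. Use of strand and the handling of fragments with several alignments were not stated, so similar or overlapping genes are uncertain. All 34745 rows named a gene.

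The deposited counts were tested with edgeR 4.0.16 in R 4.3.3 (filterByExpr with a minimum count of 10, TMM, glmQLFit and glmQLFTest, Benjamini-Hochberg adjustment), after the study's use of edgeR, TMM and limits of 0.05 on the adjusted p and 2 on the fold change. The biological coefficient of variation was 11.7%. Intervals are SD or SE as named, and the floor of 3 counts covers counting error only. The edgeR, DESeq2 and limma fits were tested on counts simulated from the means and sizes of these libraries. Alternatives were RLE and upper quartile factors, library size only, no filter, at least 10 counts in every library, DESeq2 1.42.0, limma 3.58.1 on log2(FPKM + 1), a replicate block and leaving out each library. Python 3.11.15, pandas 2.3.3 and matplotlib 3.10.9 were used for tables and figures.

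The members and lists were chosen with earlier results of these data known. Every gene of the set is accounted for. Of the wider list, genes past both limits were named, with Slc7a11, Nfe2l2, Keap1, Txnrd1 and Srxn1 whatever their values. Positions are those of the deposited table, and all 42 identifiers occur in GENCODE M21 (GRCm38). No library was a copy of another, with a chi-square per gene of at least 6.38 within groups.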

Additional observations from a re-analysis of the deposited data

How the results depend on the processing

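Under 14 alternatives, 13 of the 16 called glutathione genes kept their direction and call wherever they were tested, and the exceptions were Gsta4, Gsto2 and Mgst2, whose lost calls are given with their values. The number past the fold limit was 9, against 5 with at least 10 counts in every library, where only 26 genes were tested, and 4 with limma on log2(FPKM + 1), a scale that understates the change of low genes. The median log2 fold change was 0.37 and became 0.24 with limma. When libraries were left out, the lower genes of the wider list numbered 5 to 8, with 5 without alone replicate 2. Same-numbered libraries did not deviate together (correlations 0.016, -0.026 and -0.0036). These values cannot show how the cultures were set up, so a pairing by number stays unknown. With the replicate block, 12 genes were higher instead of 13, since Gsto2 then had an adjusted p of 0.0506.

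Signs turned only in genes that were not called. Gstp1 was at 0.045 with library size only, at 0.027 with limma, and at -0.18 to 0.095 when libraries were left out. Gstz1 was at 0.027 with library size only, at 0.024 with limma, and at -0.078 to 0.019 when libraries were left out. On leaving out libraries Mgst1 ranged from -0.055 to 0.072, Mgst3 from -0.74 to 0.056 and Gpx4 from -0.059 to 0.23. Gstm5 and Gstt1 were called with library size only (adjusted p = 0.0405 and 0.0433) and with limma (0.0383 and 0.0231). Genes with under 10 counts in a library are limited by depth.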

Other observations

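The deposited FPKM values rest on lengths that differ between genes in how they were set. The length implied by count, FPKM and library total could be computed for 37 of the 42 glutathione genes. In 24 of them it was within 1 base of the summed length of all annotated exons, with exons shared by several transcripts counted again, and in 23 it exceeded the merged exon length. For Gpx1 the implied length was 3412 bases, while the whole gene spans 1441. For Glrx it was 1345 bases, against 5494 bases of merged exon, and for Gstp1 757 against 1548. Order among genes by FPKM therefore differs from that by CPM per kb of merged exon: alone, Gstp1 had rank 3 by FPKM and rank 6 per kb among the 30 tested genes. The difference leaves comparisons of a gene between libraries as they are.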
